A study of Bos taurus with 14 samples.

Results

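VCAM1 (ENSBTAG00000007773) and CX3CL1 (ENSBTAG00000024869) are genes of leukocyte adhesion, and were 2 of the 24616 genes counted in bovine endometrial explants. Both were chosen by their differences between sPIF and Control explants, so these differences are given as a description and carry no test. Both genes had at least 10 counts in every library, as had 13233 genes in all, and these made up the genes tested.

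VCAM1 encodes an adhesion receptor that activated endothelium displays to leukocytes carrying the integrin α4β1. CX3CL1, also called fractalkine, encodes a chemokine that is anchored in the membrane, where it holds leukocytes carrying the receptor CX3CR1, and that ADAM10 and ADAM17 release as a soluble attractant. Transcription of both genes is induced by tumour necrosis factor through NF-κB, and leukocytes enter the endometrium from its vessels in a way that changes over the oestrous cycle and in early pregnancy.

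The study asked how sPIF, the synthetic form of the embryonic peptide preimplantation factor, acts on non-pregnant endometrium. Uteri came from 7 heifers (Bos taurus) collected at an abattoir, staged as follicular by the ovary. With 1 Control and 1 sPIF library of each animal there were 14 libraries, prepared from extracted total RNA and sequenced paired-end. The animals are called cows 1 to 7 here, and their ages were not given in the sources used here. Each explant was intercaruncular tissue cut free of myometrium, from the horn beside the staged ovary. The sPIF explants (n = 7) were cultured for 24 h with 100 nM sPIF and for a further 6 h in fresh medium with sPIF. The Control explants (n = 7) were kept for the same 30 h in the same medium with the dimethyl sulphoxide vehicle and no peptide. By the study's text cows 1 to 4 were sequenced in lane 1 and cows 5 to 7 in lane 2, and the libraries of lane 2 were sequenced 2 times and their counts added. Serum progesterone was low in cows 1, 6 and 7 and high in cows 2 to 5, although all 7 were staged as follicular. An explant holds epithelium, stroma, vessels and leukocytes. In bulk samples fewer cells of a type and less RNA per cell cannot be told apart.

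Total counts ranged from 15885642 to 28625724 per library, with a median of 17752182 in Control and 21169927 in sPIF explants. Levels are given as CPM, which scales each count to the TMM-normalised size of its library, and differences as sPIF minus Control on the log2 scale within a cow. VCAM1 had 531 to 3619 counts per library and CX3CL1 266 to 1555. The 95% Poisson interval of the lowest of these, 266, ran from 235 to 300 counts, and such intervals cover counting error only. Cow 3 stood apart from the other cows, with a standard deviation of 0.76 over all tested genes' log2 differences against 0.35 to 0.51 in the other 6 cows. The differences of VCAM1 and CX3CL1, their fits over all cows and their correlation are therefore also given without cow 3, which left the fitted sPIF log2 fold change at -1.05 for VCAM1 and -0.79 for CX3CL1.

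VCAM1, the adhesion receptor, was lower in the sPIF than in the Control explant in 6 of 7 cows. In Control explants it ranged from 34.1 CPM in cow 1 over a median of 126 to 158 in cow 5. In sPIF explants it ranged from 27.2 CPM in cow 6 over a median of 44.2 to 88.0 in cow 4. The ranges of the groups overlapped through the low Control explant of cow 1 and the high sPIF explant of cow 4, which lay above the Control explant of cow 7 at 81.6 CPM. Cow by cow, VCAM1 went from 116 to 40.9 CPM in cow 2, from 133 to 32.1 in cow 3, from 158 to 46.4 in cow 5 and from 142 to 27.2 in cow 6. The difference was smaller in cow 4, from 126 to 88.0 CPM, and in cow 7, from 81.6 to 57.3. Cow 1 was the exception, with 34.1 CPM in its Control explant and 44.2 in its sPIF explant. The Poisson intervals of this pair, 31.3 to 37.0 and 41.4 to 47.2 CPM, did not overlap, so the opposite direction in cow 1 was larger than counting error. Its Control level was less than that of any other Control explant, while its sPIF level was the median of the sPIF explants.

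The within-cow log2 differences of VCAM1 averaged -1.19 ± 1.00 (SD, n = 7) and ran from -2.38 in cow 6 to 0.38 in cow 1. Cows 2, 3, 5 and 6 had differences between -2.38 and -1.50, cows 4 and 7 had -0.52 and -0.51, and no cow lay between these sets. Apart from cow 1, the sPIF level was between 19.1% of the Control level, in cow 6, and 70.3%, in cow 7. Mean levels were 113 ± 42.2 CPM in Control and 48.0 ± 20.2 in sPIF explants (SD, n = 7 each). The paired fit gave a log2 fold change of -1.20 (SE 0.31), with 7 of the 13233 genes lower still. The mean difference was -1.45 ± 0.78 (SD, n = 6) without cow 1 and -1.05 ± 1.01 (SD, n = 6) without cow 3. A sign below 0 in at least 6 of 7 cows was found in 9.53% of the genes tested.

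CX3CL1, the membrane-anchored chemokine, was lower in the sPIF explant in 7 of 7 cows, but by amounts that differed between cows. In Control explants it ranged from 26.7 CPM in cow 2 over a median of 49.0 to 70.7 in cow 1. In sPIF explants it ranged from 13.4 CPM in cow 5 over a median of 21.8 to 53.1 in cow 1. The group ranges overlapped widely, since the sPIF explants of cows 1, 3 and 4 lay above the Control explants of cows 2, 6 and 7. In lane 1 the level went from 70.7 to 53.1 CPM in cow 1, from 26.7 to 21.8 in cow 2, from 57.2 to 45.3 in cow 3 and from 55.9 to 50.0 in cow 4. In lane 2 it went from 49.0 to 13.4 CPM in cow 5, from 38.7 to 13.6 in cow 6 and from 31.8 to 21.6 in cow 7. In cow 4 the Poisson intervals of the pair, 52.3 to 59.5 and 47.3 to 52.9 CPM, overlapped, and in the other 6 cows they did not.

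The log2 differences of CX3CL1 averaged -0.73 ± 0.67 (SD, n = 7), from -1.86 in cow 5 to -0.16 in cow 4, and the mean without cow 3 was -0.80 ± 0.71 (SD, n = 6). Mean levels were 47.1 ± 15.6 CPM in Control and 31.2 ± 17.5 in sPIF explants (SD, n = 7 each). The paired fit gave a log2 fold change of -0.72 (SE 0.21), and 72 genes had a lower value. All 7 cows lay below 0 in 1.60% of the genes tested, and both counts of cows come from the contrast that chose the genes. In this contrast edgeR called 0% of the genes tested at an adjusted p below 0.1, with 1061 genes at an unadjusted p below 0.05, and DESeq2 called 100 genes.

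**Figure D1:**
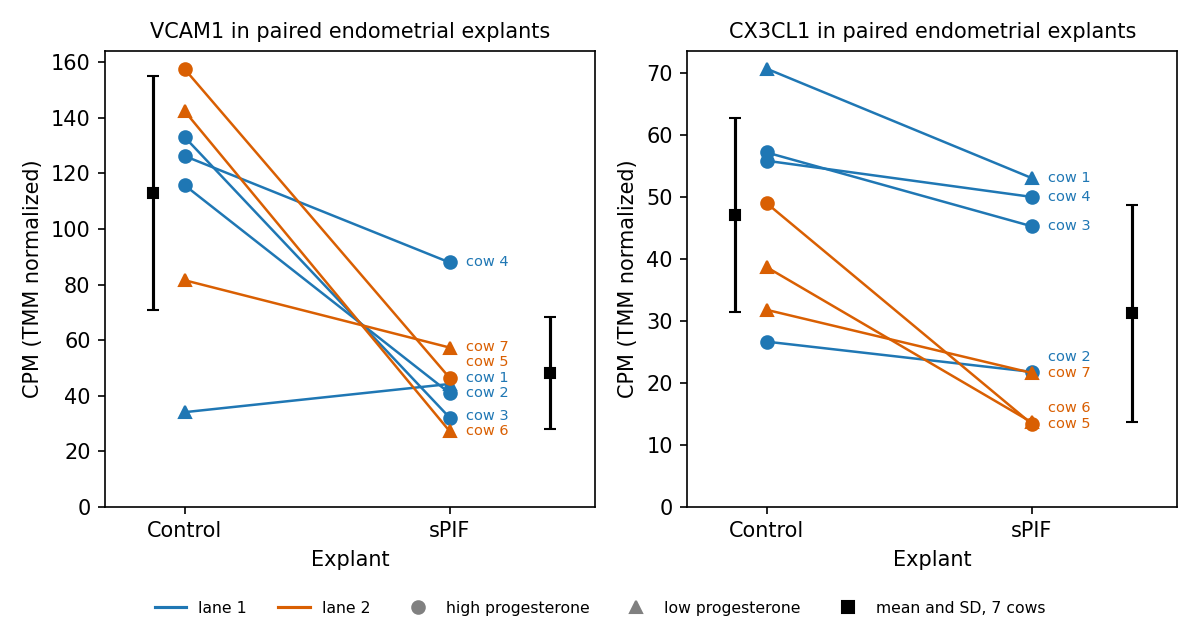
Level of VCAM1 and CX3CL1 (CPM after TMM normalisation, vertical axes) in the Control and sPIF explant of each of 7 cows, joined by a line, with colour for lane, symbol shape for progesterone group, and black squares and bars for the mean and SD of each treatment. VCAM1 was lower with sPIF in every cow but cow 1, and the steepest CX3CL1 lines are those of cows 5 and 6 of lane 2.

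The cows differed from each other more in some of these measures than in others. Of the variation of VCAM1 over the 14 libraries (sum of squares of log2 CPM), 22.9% lay between cows, 48.3% between Control and sPIF, and the remaining 28.8% in the way cows differed in that contrast, error included. For CX3CL1 the shares were 59.1%, 23.8% and 17.1%, and the medians over all tested genes were 75.6%, 2.32% and 19.4%. The share of the sPIF contrast is a value the genes were chosen on. Among Control explants the SD of log2 CPM between cows was 0.76 for VCAM1 and 0.50 for CX3CL1, against a median of 0.38 over genes. Among sPIF explants it was 0.55 for VCAM1 and 0.86 for CX3CL1, against a median of 0.37. The larger spread of VCAM1 in Control explants rested on cow 1, without which its SD was 0.33 in Control and 0.61 in sPIF explants (n = 6 each, an alternative chosen after seeing the data). CX3CL1 spread more in sPIF explants with any single cow left out, at 0.81 to 0.93 against 0.42 to 0.55 in Control explants, and these orders were not tested. The SD of the log2 differences, 1.00 for VCAM1 and 0.67 for CX3CL1, was exceeded by 3.02% and 12.6% of the genes tested.

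Between sequencing lanes, CX3CL1 was lower in lane 2 and VCAM1 showed no detectable difference. With both explants of a cow summed, CX3CL1 had a log2 fold change of -0.87 in lane 2 against lane 1 (SE 0.28, edgeR adjusted p = 0.0468), and VCAM1 one of -0.0026 (SE 0.29, adjusted p = 0.996). In this comparison 39.6% of the genes tested were called, and 2 genes are too few to tell 1 call among them from that background. Lane holds different animals and a different number of sequencing runs, and these cannot be told apart. The exact permutation test on the mean log2 CPM of each cow, in which 0.0286 is the smallest p that 4 against 3 cows allow, gave a two-sided p of 0.114 for CX3CL1 and 0.771 for VCAM1 (Benjamini-Hochberg over 16 such tests, 0.457 and 0.914). Without cow 3 the CX3CL1 value was -0.82 (edgeR adjusted p = 0.0877) and the VCAM1 value 0.08 (adjusted p = 0.872). The call was lost without cow 1, 5, 6 or 7, at values of -0.74, -0.90, -0.86 and -0.85 and adjusted p of 0.102 to 0.118.

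The lane difference of CX3CL1 was larger in sPIF than in Control explants. The sPIF-by-lane term given further on passed the threshold with DESeq2 and not with edgeR. That term rests on within-cow differences known when the gene was chosen, so it is no independent support. Among Control explants, CX3CL1 was 52.6 ± 18.6 CPM in lane 1 (SD, n = 4) and 39.8 ± 8.66 in lane 2 (SD, n = 3), with overlapping ranges because cow 2 of lane 1 was the lowest of all 7. Control explants alone gave a log2 fold change of -0.41 (edgeR adjusted p = 0.383), and 15.9% of the genes tested had all Control explants of lane 2 below those of lane 1. Among sPIF explants, CX3CL1 was 42.5 ± 14.2 CPM in lane 1 (SD, n = 4) and 16.2 ± 4.68 in lane 2 (SD, n = 3). There the ranges did not overlap, but only by the gap between 21.8 CPM in cow 2 and 21.6 in cow 7, which lay within counting error. This order was found in 18.8% of the genes tested. The sPIF explants alone gave a log2 fold change of -1.39 (edgeR adjusted p = 0.0162), with an exact permutation p of 0.0571 (adjusted 0.457). Of the genes tested, edgeR called 37.1% between lanes in sPIF explants alone and 26.8% in Control explants alone, so such a call is common.

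The contrast of sPIF with Control was compared between lanes for each gene. CX3CL1 differences averaged -0.30 ± 0.11 (SD, n = 4) in lane 1 and -1.31 ± 0.68 (SD, n = 3) in lane 2. The sPIF level was 75.0% to 89.6% of the Control level in the cows of lane 1 and 27.3% to 68.0% in those of lane 2. Every cow of lane 2 thus had a larger difference than any cow of lane 1, an order found in 5.45% of the genes tested, and in 11.6% with either lane lower. The nearest pair, cows 7 and 1, lay 0.14 apart with a counting error of 0.11 (SE, log2), so the absence of overlap is not firm at this depth. The exact permutation p was 0.0286, the smallest possible, and 0.457 after adjustment over the 16 tests. The interaction term was -1.01 (SE 0.28, edgeR adjusted p = 0.375), and was called by DESeq2 at -1.02 (adjusted p = 0.0790). Over that result's alternatives the adjusted p ran from 0.0790 to 0.783. In this term edgeR called 0% of the genes tested, with 1516 at an unadjusted p below 0.05, and DESeq2 called 1.32%, or 175 genes. The 1516 became 807 without cow 5 and 1978 without cow 7, the extremes over single cows left out. This difference of CX3CL1 was known when the gene was chosen and is not independent support. VCAM1 differences were -0.92 ± 1.07 (SD, n = 4) in lane 1 and -1.55 ± 0.96 (SD, n = 3) in lane 2, and overlapped. Its interaction term was -0.62 (SE 0.61, edgeR adjusted p = 0.708), with an exact permutation p of 0.429. In lane 1 the VCAM1 mean included the opposite difference of cow 1, and was -1.36 ± 0.77 (SD, n = 3) without it. Without cow 3 the interaction term was -1.02 for CX3CL1 and -1.002 for VCAM1 (edgeR adjusted p = 0.486 and 0.586). The VCAM1 term was also -0.20 without cow 1, -0.21 without cow 6 and -1.14 without cow 7 (edgeR adjusted p = 0.906, 0.931 and 0.423).

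Between progesterone groups, neither gene passed the test. VCAM1 in Control explants was 133 ± 17.8 CPM in the high progesterone cows (SD, n = 4) and 86.0 ± 54.3 in the low ones (SD, n = 3). The high cows lay close together, from 116 to 158 CPM, while the low cows held the lowest Control levels, 34.1 in cow 1 and 81.6 in cow 7, and also 142 in cow 6. The ranges overlapped through cow 6, and the exact permutation p was 0.143 (adjusted 0.457). In sPIF explants VCAM1 was 51.8 ± 24.8 CPM in high (SD, n = 4) and 42.9 ± 15.1 in low progesterone cows (SD, n = 3). With both explants summed the log2 fold change of high against low was 0.55 (SE 0.25, edgeR adjusted p = 0.852), and 0.31 without cow 1 (adjusted p = 0.420). For CX3CL1 it was 0.08 (SE 0.41, edgeR adjusted p = 0.960), with Control levels of 47.2 ± 14.1 CPM in high (SD, n = 4) and 47.1 ± 20.8 in low cows (SD, n = 3). The direction of this CX3CL1 value turned with lane as a covariate, to -0.22, and to -0.10, -0.09, -0.13 and -0.15 without cow 3, 4, 6 or 7, while it was 0.63 without cow 1, 0.25 without cow 2 and 0.23 without cow 5. Without cow 3 the VCAM1 value was 0.54. In this comparison edgeR called 0% of the genes tested, with 458 at an unadjusted p below 0.05, and DESeq2 called 0.181%, or 24 genes. The 458 became 251 without cow 4 and 2040 without cow 1, the extremes over single cows left out.

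Within lanes the progesterone groups were small. In lane 1 the only low progesterone cow was cow 1, whose VCAM1 Control level of 34.1 CPM lay below the 116 to 133 of cows 2 to 4 and whose CX3CL1 level of 70.7 lay above theirs of 26.7 to 57.2. In lane 2 the only high progesterone cow was cow 5, whose Control explant was the highest of that lane for both genes, at 158 CPM for VCAM1 and 49.0 for CX3CL1. With lane as a covariate the VCAM1 log2 fold change was 0.77 (edgeR adjusted p = 1.00). The sPIF differences of VCAM1 averaged -1.46 ± 0.66 in high (SD, n = 4) and -0.84 ± 1.41 in low progesterone cows (SD, n = 3). The interaction term was -0.64 (SE 0.62, edgeR adjusted p = 1.00; exact permutation p = 0.457), and without single cows it ran from -1.39 (cow 6) to -0.03 (cow 1), with -0.44 without cow 3. Those of CX3CL1 averaged -0.66 ± 0.80 (SD, n = 4) and -0.82 ± 0.59 (SD, n = 3), with an interaction term of 0.17 (SE 0.44, edgeR adjusted p = 1.00; exact permutation p = 0.657). That term was 0.05 without cow 3 and ran from -0.16 (cow 6) to 0.55 (cow 5) without single cows. In this term edgeR called 0% of the genes tested, with 187 at an unadjusted p below 0.05, and DESeq2 called 0. The 187 became 162 without cow 7 and 608 without cow 5, the extremes over single cows left out.

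The levels of VCAM1 and CX3CL1 did not follow each other over the cows in a way the test could detect. Cow 1 had the lowest VCAM1 and the highest CX3CL1 of the Control explants. Over the 7 Control explants Pearson's r was -0.35 (exact permutation p = 0.490) and Spearman's rho -0.07 (exact permutation p = 0.906). The sign rested on cow 1, without which r was 0.56 (n = 6), and it was 0.45 (n = 5) without cows 1 and 7, whose VCAM1 levels were farthest from the median. Without cow 3 it was -0.45 (n = 6). Over the log2 differences r was 0.52 (exact permutation p = 0.235) and rho 0.29 (exact permutation p = 0.556), and r was 0.56 (n = 5) without cows 1 and 7 and 0.70 (n = 6) without cow 3. Both relations were tested, and adjusted p-values were 0.490 and 0.471 for r and 0.906 for both rho. Cows 5 and 6 had large differences in both genes, whereas cows 2 and 3 had VCAM1 differences of -1.50 and -2.05 beside CX3CL1 differences of -0.29 and -0.34. The lanes, with 4 and 3 cows, were too small for a value within each.

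SELP, the gene of P-selectin, which endothelium uses to slow leukocytes before VCAM1 holds them, was the other of 11 listed endothelial adhesion molecules that could be matched to a row. In Control explants it ranged from 45.2 CPM in cow 1 over a median of 145 to 316 in cow 6. In sPIF explants it ranged from 6.80 CPM in cow 2 over a median of 42.6 to 94.6 in cow 4. SELP was lower with sPIF in 7 of 7 cows, with the difference nearest to 0, -0.08, in cow 1. As for VCAM1, cow 1 had the lowest Control level and cow 4 the highest sPIF level. The SELP differences averaged -1.85 ± 1.44 (SD, n = 7), with -3.88 in cow 2, -3.27 in cow 6 and -2.61 in cow 5 the largest, and the fitted log2 fold change was -1.81 (SE 0.46). Between lanes its log2 fold change was 0.60 (SE 0.37, edgeR adjusted p = 0.259), with 1.13 among Control explants alone (adjusted p = 0.0887) and -0.46 among sPIF explants alone (adjusted p = 0.639). With both explants summed the SELP value ran from 0.34 to 0.82 without single cows. SELP was itself picked by the study from these explants for its sPIF difference, and is not independent evidence of a direction.

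The genes that signal to VCAM1 and CX3CL1 were represented by 8 of 20 listed inducers and NF-κB factors. These were the receptor CD40, the adaptors TRAF1 and TRAF2, the NF-κB subunits NFKB1 and NFKB2, the inhibitors NFKBIE and TNFAIP3, and the interferon-induced factor IRF1. Their symbols came from the study's own list of sPIF genes, so their direction in this contrast is not independent evidence. Their sPIF log2 fold changes ran from -0.77 to -0.32 with a median of -0.44, against 0.0013 over all genes. IRF1 had the largest, from 385 ± 190.4 CPM in Control to 211 ± 80.1 in sPIF explants (SD, n = 7 each). By cow, the median difference of the 8 genes was nearest to 0 in cow 1, at -0.15, where 7 of 8 were lower, and farthest in cow 5, at -0.90. In cows 2, 3, 4, 6 and 7 it was -0.47, -0.54, -0.30, -0.61 and -0.58, and in each of cows 2 to 7 the level was lower with sPIF for 8 of 8 genes. Cow 1 thus had both the median of these genes nearest to 0 and the VCAM1 difference above 0. For CD40, TRAF2 and NFKB2 the difference of cow 4 was nearer to 0 than that of cow 1. Whether the median and the VCAM1 difference go together was not tested.

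Between lanes, 4 of the 8 genes were called, in the direction opposite to CX3CL1, and this contrast with CX3CL1 was not itself tested. These were TRAF2, IRF1, NFKBIE and NFKB2, higher in lane 2 at log2 fold changes of 0.83, 0.88, 0.76 and 0.53 (edgeR adjusted p = 0.00460, 0.0460, 0.0632 and 0.0651), and 0 were called lower. The NFKBIE and NFKB2 values were 0.43 and 0.33 without cow 7, and neither was called (edgeR adjusted p = 0.189 and 0.172). The median of the 8 was 0.56, against -0.0001 over all genes, and the 4 of 8 called stand beside 39.6% of all genes. Of all 13233 genes tested, 2591 were called higher and 2645 lower in lane 2, and the difference of the 8 from that split was not tested. CD40, TRAF1, NFKB1 and TNFAIP3 did not pass (adjusted p = 0.249, 0.290, 0.215 and 0.374), and TNFAIP3 turned from 0.32 to -0.026 without cow 7. CD40 and NFKB1 passed without cow 3, at 0.65 and 0.53 (edgeR adjusted p = 0.0601 and 0.0821). Of the 11 matched genes of adhesion, chemokine and inducer lists, 5 were called between lanes, and CX3CL1 was the only one of these that was lower in lane 2. Without cow 1 or cow 7, 1 of the 11 was called, beside 32.8% and 34.5% of the genes tested, and without cow 2 or cow 6 there were 3, beside 31.9% and 28%. Omission of cow 3 gave 7 of the 11, beside 5181 of the 13233 genes tested. Among Control explants alone 5 of the 11 were called, beside 26.8% of the genes tested, and among sPIF explants alone 2, beside 37.1%. For progesterone group and for both interaction terms edgeR called 0 of the 11. The sPIF-by-lane term of SELP was -1.32 (SE 0.81, edgeR adjusted p = 0.557), larger in size than that of CX3CL1 but with overlapping lanes. The largest such terms among the 8 were -0.62 for IRF1 and -0.46 for NFKB1 (edgeR adjusted p = 0.418 and 0.383). For NFKB1, NFKB2, NFKBIE and IRF1, as for CX3CL1, every difference in lane 2 lay below those in lane 1, so that 5 of the 11 genes had this order, against 5.45% of the genes tested. The gaps between the lanes were 0.01 for IRF1, 0.04 for NFKBIE, 0.05 for NFKB2 and 0.12 for NFKB1, with counting errors of 0.03, 0.07, 0.04 and 0.06 (SE, log2), so the order is not firm for the first 3 of these. All 11 had been picked on the sPIF contrast, and this order is computed from the same within-cow differences. The share over all genes tested is therefore not a like background for the 11, and no conclusion is drawn from setting them side by side.

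**Figure D2:**
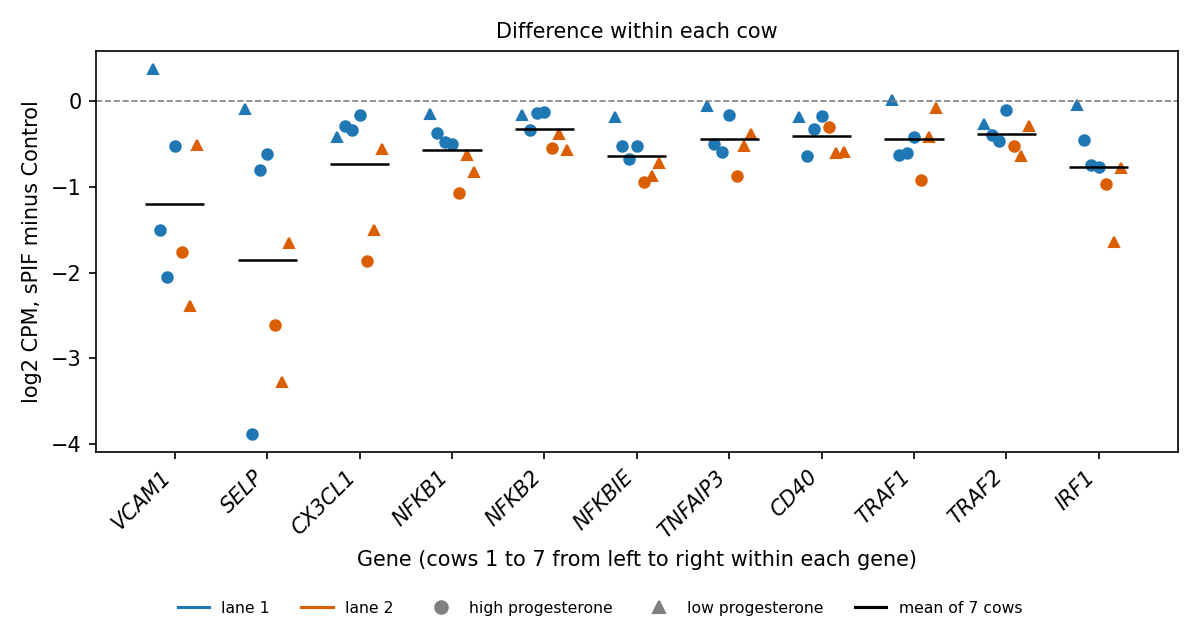
Difference between the sPIF and Control explant of each cow (log2 CPM, vertical axis) for VCAM1, SELP, CX3CL1 and 8 inducers and NF-κB factors, with colour for lane, symbol shape for progesterone group and a black line for the mean of 7 cows. Cow 1 is the leftmost point of each gene, at 0.38 for VCAM1 and -0.08 for SELP, and the points of lane 2 all lie below those of lane 1 for CX3CL1, NFKB1, NFKB2, NFKBIE and IRF1.

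Genes with patterns like those of VCAM1 and CX3CL1 were sought among the 84 other genes that had a symbol and passed the count filter. All 85 named genes had been picked by the study for their sPIF difference, 66 with a mean difference below 0, as VCAM1 and CX3CL1 have, and 19 with one above 0, and r is given as a description without a p. Over log2 CPM in the 14 libraries, VCAM1 was most like FMOD, a collagen-binding proteoglycan (r = 0.81), GJC1, a gap junction protein (0.80), the cochaperone gene DNAJB1 (0.79), PTGDR, a prostaglandin D receptor (0.79), and the tetraspanin TSPAN5 (0.78). Of the 13232 other genes tested, 9 had a higher r with VCAM1 than FMOD, and SELP came next among the named genes at 0.77. DNAJB1 was given for more than one row, between which its reads could have been split. CX3CL1 had weaker likenesses, with RAB8B, a small GTPase (0.67), CALCRL, the calcitonin receptor-like receptor (0.67), ERO1B, an oxidase of protein folding (0.56), NOCT, the gene of nocturnin (0.53), and lipoprotein lipase LPL (0.50). Of the other genes tested, 187 had a higher r with CX3CL1 than RAB8B. Between VCAM1 and CX3CL1 themselves r was 0.37 over the 14 libraries.

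In the within-cow differences over 7 cows, VCAM1 was most like the transcription factor STAT5A, at r = 0.97, and 1 other gene had a higher value. It was followed by the glycosyltransferase GCNT4 (0.91), RAB8B (0.91), the retinoic acid hydroxylase CYP26B1 (0.90) and FRMD6 (0.87). CX3CL1 was most like the circadian repressor NR1D1 (0.85), AMIGO3 (0.83), the stress-induced phosphatase subunit PPP1R15A (0.75), CD83, a surface protein of activated leukocytes (0.75), and NFKBIE (0.74). For NR1D1 393 of the other genes had a higher r with CX3CL1, so its closest named genes were not its closest genes overall.

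Receptors on leukocytes (9 listed), sheddases (2 listed) and 15 of the 16 listed chemokines could not be matched to rows, since symbols were at hand for 88 genes. For the same reason the levels of endothelial, leukocyte, epithelial, stromal and uterine markers were not analysed here, and whether the amount of vessel or leukocyte differed between explants was not tested. Of 46 entries on 6 marker lists, 1 was matched, CNN1, a contractile protein of smooth muscle. CNN1 was 78.1 ± 46.8 CPM in Control and 49.4 ± 34.2 in sPIF explants (SD, n = 7 each), a log2 fold change of -0.69 (SE 0.14) in a gene also picked by the study for it. Between lanes CNN1 was higher in lane 2, with a log2 fold change of 1.28 (SE 0.36, edgeR adjusted p = 0.0298), and its part in the values of VCAM1 and CX3CL1 was not tested.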

How the data were processed

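The deposited values were whole-number counts per Ensembl gene, which the authors made by trimming reads with Trimmomatic 0.36.0, mapping them to the UMD3.1 cattle genome with Bowtie2 2.2.6 and counting with featureCounts 1.4.6. The strand setting was not given in the sources used here, so reads of overlapping antisense genes could not be separated. The row of column totals was left out.

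The 13233 of 24616 genes that reached 10 counts in all libraries were tested with edgeR 4.0.16 (R 4.3.3; TMM, quasi-likelihood test, Benjamini-Hochberg adjustment over all genes tested, threshold 0.1). The sPIF contrast and its interactions with lane and progesterone group had cow as a block. Lane and progesterone group were compared on counts summed per cow. Single values were compared by exact two-sided permutation over the 35 splits of 7 cows. Each SE beside an edgeR value was the size of the log2 fold change divided by the square root of the quasi-likelihood F statistic. It thus restates that test, and for the sPIF contrast it is given as a description. Log2 CPM used a prior count of 2. The fits were tested on simulated data. DESeq2 1.42.0, limma 3.58.1 (voom), other factors and filters, and omission of each cow were alternatives.

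Explants were paired by the animal number in the labels. Deviations from the group means correlated at 0.41 to 0.76 within a cow, and at -0.56 to 0.54 between cows. Lane and progesterone group were taken from the study's methods and text.

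Symbols came from the study's list of sPIF genes (88 pairs), and 0 identifiers matched the RefSeq table at hand. The members and gene lists were chosen with earlier results of these data known. Named genes were VCAM1, CX3CL1, matched adhesion genes, the listed inducers and the 5 named genes most like each. Inducers beyond the 4 with the largest sPIF values were named after their values were seen.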

Additional observations from a re-analysis of the deposited data

Results flagged for a closer look

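The sPIF difference of CX3CL1 differed between the sequencing lanes, by -1.01 on the log2 scale in lane 2 relative to lane 1. The exact permutation p was 0.0286, the smallest that 4 against 3 cows allow, and 0.457 after adjustment over 16 tests, so it did not pass the correction. This difference was known when the gene was chosen, and rests on the same within-cow differences that chose it, so the p is no independent support. Lanes hold different cows, and the part of lane, animal or the second sequencing run was not tested.

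Among the 4 high progesterone cows, cow 5 had a CX3CL1 difference of -1.86, far below those of cows 2, 3 and 4, which were -0.29, -0.34 and -0.16. The gap to the nearest cow was 0.896 of the group's range, above Dixon's 95% critical value of 0.829. Cow 5 is also the only cow of that group in lane 2. In all 18 groups of values were examined and 1 stood out in this way, where chance alone would give 0.9, so this is about what chance gives. The differences are also the values that chose the gene, and the comparison is not independent of that choice.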

How the results depend on the processing

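The lower level of both genes with sPIF held its direction in each alternative, between -1.55 and -0.93 for VCAM1 and between -1.31 and -0.30 for CX3CL1. Both genes were chosen on this contrast in these same libraries, so the held direction is a description and not independent support. Leaving out each cow gave -1.46 to -1.004 and -0.82 to -0.53, and lane 1 and lane 2 alone gave -0.93 and -1.55 for VCAM1 and -0.30 and -1.31 for CX3CL1. Without pairing by cow the values were -1.23 and -0.59, with 0 genes called, as with it. DESeq2 called 100 genes for sPIF, 24 for progesterone group and 175 for the sPIF-by-lane term, of which 1 was a listed gene, CX3CL1 at -1.02. The lane value of VCAM1, near 0, turned to 0.0035 with DESeq2, to 0.0035 with median-of-ratios factors and to 0.29 in Control explants alone, and ran from -0.23 to 0.15 without single cows. That of CX3CL1 was -0.41 in Control explants alone, which was not called, and ran from -1.10 to -0.74 without single cows. The lane value of SELP was -0.46 in sPIF explants alone, and that of TNFAIP3 ran from -0.026 (without cow 7) to 0.52. The listed genes called for lane numbered 1 to 7 of 11 without single cows (3709 to 5181 of all 13233 genes), 5 in Control explants alone (3546 of all) and 2 in sPIF explants alone (4907 of all). The progesterone value of CX3CL1 was -0.22 with lane as a covariate and ran from -0.15 to 0.63 without single cows, and its sPIF-by-progesterone term from -0.16 to 0.55. The correlation of both genes over Control explants ran from -0.49 to 0.56 without single cows. The cause of these changes was not tested. The lowest count of either gene, 266, had a 95% Poisson interval of ± 12.2%.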
